A study of Mus musculus with 46 samples.

Results

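The 33 genes described here encode the enzymes and transporters of glycolysis and a set of transcripts that low oxygen induces. They were taken from each gene table by a list of symbols, and all 33 were found among the 24537 genes of each of the 8 tables. By role they comprise 7 genes of glucose uptake and the first steps of glycolysis (Slc2a1, Hk1, Hk2, Gpi1, Pfkl, Pfkp, Pfkm), 9 genes of the steps from aldolase to pyruvate (Aldoa, Aldoc, Tpi1, Gapdh, Pgk1, Pgam1, Eno1, Eno2, Pkm), 3 genes that set the fate of pyruvate (Ldha, Slc16a3, Pdk1), 4 genes of the feedback on oxygen sensing (Egln1, Egln3, Kdm3a, Ankrd37) and 10 further hypoxia outputs (Vegfa, Adm, Car9, Ndrg1, Bnip3, P4ha1, P4ha2, Ero1l, Mxi1, Ddit4).

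The study measured RNA after loss of Arid1a in mouse cells and tumors; the gene encodes a subunit through which the nucleosome-remodelling SWI/SNF complex contacts DNA. Gene tables covered 42 of the 46 samples, in 21 of 23 groups of 2 libraries; the total RNA libraries were not used. All melanoma groups came from B16F10, a mouse melanoma line, carrying either sgScramble, a control guide, or sgArid1a, which targets Arid1a. These were subcutaneous tumors at day 15, untreated cultures, cultures given DMSO for 72 h, and cultures given PBS, with no time stated, or murine interferon-gamma (IFNγ) for 24 h. With sgArid1a only, cultures received for 72 h either anti-IFNAR, an antibody that blocks the receptor for type I interferon, or ruxolitinib, an inhibitor of the kinases JAK1 and JAK2. Double-knockout cultures (dKO) carried sgArid1a/sgCgas or sgArid1a/sgSting, and their cell line labels read B16F11 to B16F14 where their titles name B16F10. Cells with sgScramble also received BD98, with or without anti-IFNAR, or DMSO, each for 72 h. BD98 is a compound that the sample titles give by this code name. MC38 colon cancer cells carried sgScramble or sgArid1a and were untreated, and Arid1a fl/fl mouse embryonic fibroblasts (MEFs) received ethanol (WT) or tamoxifen (Arid1a -/-) and were taken at day 5. The labels do not say what drives the recombinase in the MEFs, whether guide-carrying lines are clones or pools, or whether 2 replicates are separate cultures or animals, so p-values measure only the spread between these samples, which may be technical.

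Glycolysis turns glucose into pyruvate in the cytosol, and cells that make little use of their mitochondria reduce pyruvate to lactate and export it. When oxygen is low, prolyl hydroxylases such as those encoded by Egln1 and Egln3 no longer mark the alpha subunits of hypoxia-inducible factor (HIF) for destruction by the Vhl ubiquitin ligase, and HIF binds short ACGTG or GCGTG cores in DNA together with Arnt. HIF raises most glycolytic genes, inactivates pyruvate dehydrogenase through Pdk1, and induces genes of vessel growth, pH control and mitophagy. Solid tumors and fast-growing cultures commonly run this program.

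Libraries held 8.7 M to 38.8 M reads, fewest in an untreated sgScramble culture. The tables other than that of the BD98 experiment hold log2 values normalized by the authors, so 1 unit is a doubling, and the BD98 table holds counts. Arid1a itself was lower with its guide in tumors (11.71 and 11.57 against 11.24 and 11.41), untreated cultures (10.90 and 11.08 against 10.43 and 10.39), MC38 cells (10.69 and 10.71 against 10.59 and 10.53) and tamoxifen-treated MEFs (10.52 and 10.79 against 10.12 and 10.32). In the DMSO cultures it did not pass the test (11.76 and 11.29 against 11.29 and 11.24, adjusted p = 0.23, limma), and in the PBS and IFNγ cultures the label was not reflected in Arid1a RNA (-0.08 and 0.09), so those 4 groups are named by their labels. The 10 melanocyte markers were all detected in the melanoma tables. In MC38 cells, 4 of 10 epithelial markers were at 0 in every library and the list summed to only 3.51 to 3.52, so the labelled colon origin is not visible in them; fibroblast markers in MEFs summed to 16.12 to 16.32 with none at 0.

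Reads of genes that share sequence with other transcripts can be lost or split in counting. The share of a gene's 31-base words that also occur in transcripts of another gene (GENCODE vM21) was 76.8% for Aldoa, 70.7% for Bnip3, 68.3% for Pgk1, 62.6% for Gapdh, 53.5% for Eno1, 42.1% for Pgam1, 36.6% for Gpi1, 34.8% for Pkm, 22.3% for Ldha, 18.6% for Ankrd37, 16.8% for Tpi1, 15.9% for Pfkp and 14.3% for Ndrg1. The values of these 13 genes are uncertain throughout. These shares count words in the transcripts of any other gene, overlapping genes included; with pseudogenes alone the share was 13.2% for Aldoa and 25.2% for Bnip3, 1.1% for Ankrd37 and 0% for Pfkp and Ndrg1, while for Pgk1 it was again 68.3% and for Gapdh 61.4%. For Slc16a3, Ero1l and Ddit4 the share was 0%, and for Pdk1 it was 0.8%. Per kilobase of transcript, a log2 level of Pkm, Tpi1, Ldha and Aldoa stood at the top of the 33 genes in the tumors, where Aldoa was at 15.77, Tpi1 at 15.68, Ldha at 15.53 and Pkm at 15.13 with sgScramble.

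With Arid1a lost, the glycolytic and hypoxia-induced transcripts that changed were mostly lower, and no gene was called in the same direction in all 5 settings. A gene is called changed where its adjusted p is under 0.05 (limma, Benjamini-Hochberg over all genes tested), and the percentages that follow are the share of all tested genes called in the same way. In tumors 23 of 33 members were called against 54% of all genes, 6 of them higher against 26% and 17 lower against 28.1%. The median log2 fold change was -0.21 for the members and -0.02 for all genes tested.

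In untreated cultures 12 of 33 members were called, 1 higher and 11 lower. The shares of all genes were 11.8% in either direction, 5.84% higher and 5.98% lower, and the median was -0.25 for the members and 0.01 for all genes. In the DMSO cultures 8 of 32 were called, 1 higher and 7 lower, against 7.88%, 3.5% and 4.38% of all genes. Both counts moved with single libraries. Without the shallow sgScramble library 1, 26 members were called in the untreated cultures, 25 of them lower, and without sgArid1a library 2 the count was 8. For the DMSO cultures it was 16 without sgScramble library 1, and 2 or 4 without sgArid1a library 1 or 2.

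In MC38 cells 12 of 32 members were called, 2 higher and 10 lower, against 21.2%, 8.33% and 12.9% of all genes. The libraries of each MC38 group lay so close together that differences of 0.08 on the log2 scale passed, and the members' median was -0.02; without either sgArid1a library the count was 7. MEFs after tamoxifen had 13 of 31 members lower and 0 higher (limma). The shares of all genes were 9.71% in either direction, 5.01% lower and 4.69% higher. All tamoxifen libraries are labelled Arid1a -/- and all ethanol libraries WT, so the drug and the loss of Arid1a cannot be told apart. More members were called with the replicate number as a block, as given in the last section. At an unadjusted p under 0.05, 18 members were lower and 2 higher in the MEFs, against 13.8% and 11.2% of all genes, and the median was -0.15 against -0.01 for all genes.

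**Figure D1:**
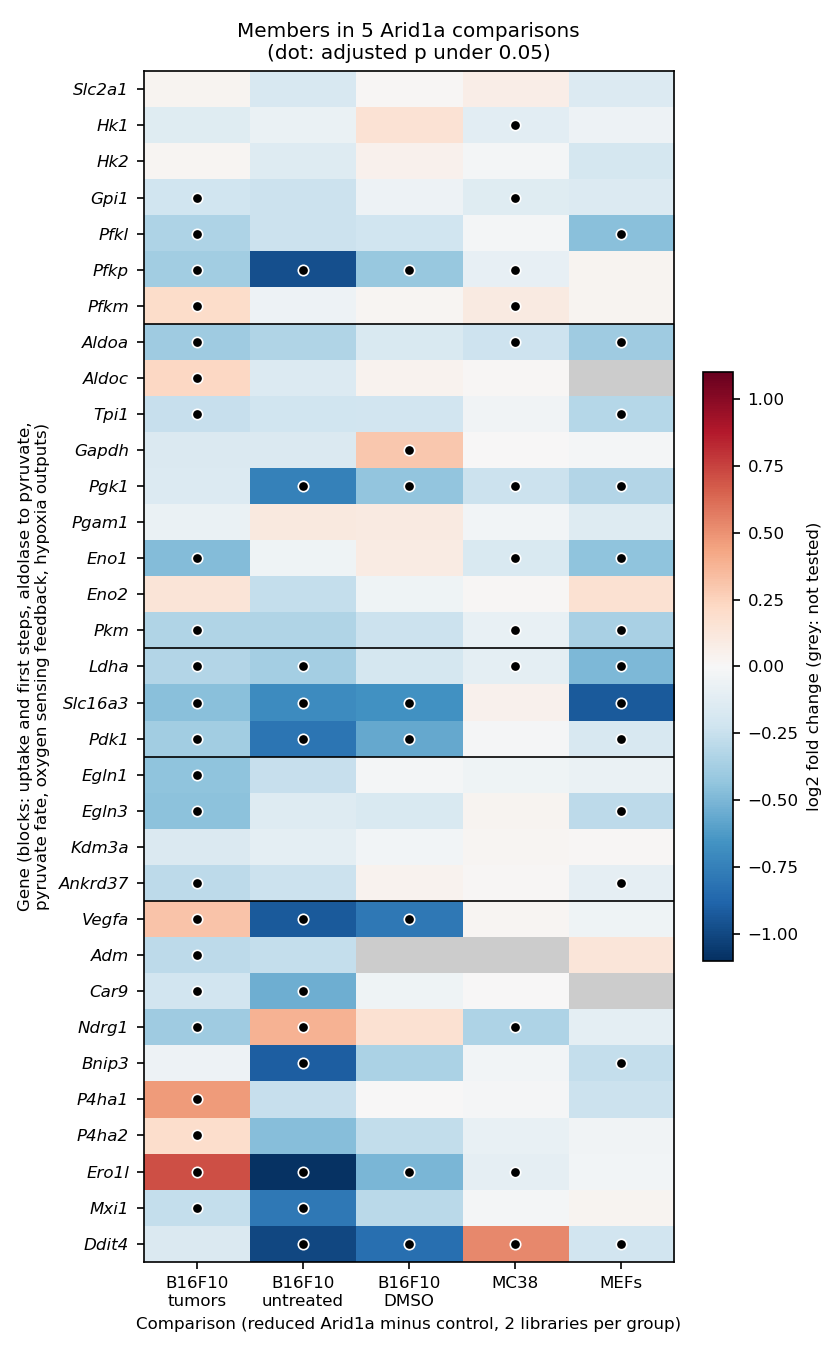
Log2 fold change of each of the 33 genes (rows, ordered by role) in the 5 comparisons with Arid1a loss that share no libraries (columns), as colour; white-edged dots mark genes called at an adjusted p under 0.05. Slc16a3, Pdk1 and Ldha are lower in 4 of the 5 columns, while Ero1l and Vegfa are higher in tumors and lower in the untreated and DMSO cultures.

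These 5 comparisons share no libraries, but the tumor, untreated and DMSO ones all use B16F10 with guides of the same names. Arid1a itself was called lower in 4 of the 5 but not in the DMSO cultures. Across the 5 comparisons 10 members were lower in at least 3: Pfkp, Pgk1, Ldha, Slc16a3 and Pdk1 in 4, and Aldoa, Eno1, Pkm, Ero1l and Ddit4 in 3. Of these, Pfkp, Pgk1, Ldha, Aldoa, Eno1 and Pkm are among the genes whose values are uncertain because of shared words. All 10 are among the 30 members tested in every one of the 5, and of the 10167 genes tested in all 5, 2.61% were lower in at least 3 and 0.502% in at least 4. Without the DMSO comparison, left out after the values were seen, 8 members were lower in at least 3 of the other 4, against 1.63% of these genes. The comparison of the guides in the PBS cultures shares no libraries with the 5 either; Arid1a did not differ there, and 0 members were lower (limma, given with the IFNγ cultures). No member was lower in all 5, and none was higher in 3 or more, which held for 1.73% of genes. Of the 33, 19 were called only lower, 5 only higher (Pfkm, Aldoc, Gapdh, P4ha1 and P4ha2), 4 in both directions (Vegfa, Ndrg1, Ero1l and Ddit4) and 5 in none (Slc2a1, Hk2, Pgam1, Eno2 and Kdm3a). Adm was too low to be tested in the DMSO and MC38 tables, and Aldoc and Car9 in the MEF table.

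The promoters of the 10 members lower in at least 3 of the 5 comparisons are shown. Each line gives the 250 bases before the RefSeq transcript start (build GRCm38.p6), 5′ to 3′ on the gene's strand, with ACGTG and GCGTG cores on either strand (read as CACGT or CACGC on the other) in capitals. Slc16a3 lies at chr11:120948817-120949066 (+), 583 bases from the start used in the count tables. Pdk1 lies at chr2:71872974-71873223 (+), Pgk1 at chrX:106186850-106187099 (+), Ldha at chr7:46846832-46847081 (+), Pfkp at chr13:6648772-6649021 (-), Ero1l at chr14:45318573-45318822 (-) and Ddit4 at chr10:59951771-59952020 (-). Aldoa lies at chr7:126799179-126799428 (-), Eno1 at chr4:150236947-150237196 (+) and Pkm at chr9:59656326-59656575 (+), the last 208 bases from the start in the count tables.
Slc16a3: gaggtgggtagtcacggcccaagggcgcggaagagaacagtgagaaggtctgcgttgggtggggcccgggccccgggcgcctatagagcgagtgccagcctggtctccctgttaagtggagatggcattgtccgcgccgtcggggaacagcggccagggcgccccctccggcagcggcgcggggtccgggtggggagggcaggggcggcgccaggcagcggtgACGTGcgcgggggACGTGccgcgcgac
Pdk1: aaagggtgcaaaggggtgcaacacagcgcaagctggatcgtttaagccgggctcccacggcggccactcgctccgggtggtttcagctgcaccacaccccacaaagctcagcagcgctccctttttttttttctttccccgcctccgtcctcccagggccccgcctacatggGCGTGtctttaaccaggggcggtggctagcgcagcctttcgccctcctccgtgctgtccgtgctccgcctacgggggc
Pgk1: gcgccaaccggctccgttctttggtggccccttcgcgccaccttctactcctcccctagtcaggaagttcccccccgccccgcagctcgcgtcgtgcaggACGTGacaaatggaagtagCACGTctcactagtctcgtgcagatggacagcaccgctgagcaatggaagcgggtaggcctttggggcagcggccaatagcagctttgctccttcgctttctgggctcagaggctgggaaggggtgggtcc
Ldha: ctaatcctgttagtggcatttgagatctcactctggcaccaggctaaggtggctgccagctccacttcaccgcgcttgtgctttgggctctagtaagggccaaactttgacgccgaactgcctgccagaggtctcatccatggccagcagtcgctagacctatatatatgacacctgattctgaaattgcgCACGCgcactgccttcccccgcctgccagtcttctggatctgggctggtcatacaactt
Pfkp: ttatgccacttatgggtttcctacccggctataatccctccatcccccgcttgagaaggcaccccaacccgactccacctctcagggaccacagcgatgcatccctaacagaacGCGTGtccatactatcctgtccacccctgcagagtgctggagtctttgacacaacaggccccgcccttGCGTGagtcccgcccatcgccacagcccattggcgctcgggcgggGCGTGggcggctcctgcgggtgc
Ero1l: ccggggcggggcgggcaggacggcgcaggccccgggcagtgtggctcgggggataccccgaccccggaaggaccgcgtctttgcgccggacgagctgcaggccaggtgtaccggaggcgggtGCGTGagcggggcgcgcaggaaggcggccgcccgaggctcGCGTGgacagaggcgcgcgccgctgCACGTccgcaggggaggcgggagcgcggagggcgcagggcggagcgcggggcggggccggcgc
Ddit4: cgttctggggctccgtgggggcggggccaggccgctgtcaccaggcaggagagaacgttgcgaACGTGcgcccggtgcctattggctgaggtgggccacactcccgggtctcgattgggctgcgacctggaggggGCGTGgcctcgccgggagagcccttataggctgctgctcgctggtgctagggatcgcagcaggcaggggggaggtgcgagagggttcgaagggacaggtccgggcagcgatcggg
Aldoa: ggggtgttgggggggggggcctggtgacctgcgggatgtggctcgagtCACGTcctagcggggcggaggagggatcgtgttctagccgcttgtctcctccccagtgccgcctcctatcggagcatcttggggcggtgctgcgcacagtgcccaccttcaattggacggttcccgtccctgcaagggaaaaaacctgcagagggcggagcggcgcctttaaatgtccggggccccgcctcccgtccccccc
Eno1: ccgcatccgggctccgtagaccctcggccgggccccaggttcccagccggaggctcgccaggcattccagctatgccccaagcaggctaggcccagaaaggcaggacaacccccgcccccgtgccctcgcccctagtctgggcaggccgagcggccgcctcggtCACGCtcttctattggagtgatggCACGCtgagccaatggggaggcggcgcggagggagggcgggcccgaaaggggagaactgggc
Pkm: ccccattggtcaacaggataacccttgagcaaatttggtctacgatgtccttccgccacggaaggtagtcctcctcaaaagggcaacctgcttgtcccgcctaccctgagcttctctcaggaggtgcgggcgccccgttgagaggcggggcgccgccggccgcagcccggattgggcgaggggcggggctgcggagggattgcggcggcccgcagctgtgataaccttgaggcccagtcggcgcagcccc
Slc16a3 carries 2 cores within the last bases before its start, Pfkp and Ero1l carry 3 each, and Pgk1, Ddit4 and Eno1 carry 2 each, while Pdk1, Ldha and Aldoa have 1 and Pkm has none in the printed bases. In the window from 250 bases before to 50 after the start, 24 of the 32 members with an entry hold either core (75.0%), against 43.8% of 32851 mouse promoters of that length. ACGTG alone was found in 18 members (56.2%, all promoters 19.6%) and GCGTG in 18 (56.2%, all promoters 32.4%). A match describes the letters only, and binding of HIF was not measured here.

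Of the 7 genes of glucose uptake and the first steps, Slc2a1 and Hk2 were not called in any of the 5 comparisons. Slc2a1 encodes GLUT1, the main glucose transporter. Its log2 values were 13.11 and 13.11 against 13.10 and 13.18 in tumors, 10.61 and 10.92 against 10.58 and 10.59 in untreated cultures, and 10.06 and 10.23 against 10.08 and 10.23 with DMSO. In MC38 cells they were 10.14 and 10.15 against 10.17 and 10.26, and in MEFs 9.80 and 9.91 against 9.65 and 9.75. Hk2, the hexokinase that traps glucose in many tumors, was 13.02 and 12.95 against 12.99 and 13.02 in tumors, 10.57 and 11.20 against 10.72 and 10.78 untreated, and 10.37 and 10.13 against 10.17 and 10.43 with DMSO. MC38 cells had Hk2 at 9.65 and 9.72 against 9.67 and 9.67, and MEFs at 9.47 and 9.52 against 9.28 and 9.33. The MEF groups did not overlap for either gene, and Hk2 there missed the threshold at an adjusted p of 0.052 (limma).

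The 3 phosphofructokinase genes encode isoforms of the enzyme that commits sugar to glycolysis, and they went different ways. Pfkp, the platelet isoform, was 11.14 and 11.53 in untreated sgScramble cultures and 10.41 and 10.32 with sgArid1a (log2 fold change -0.97 ± 0.12 standard error, adjusted p = 0.00017, limma). With DMSO it was 10.53 and 10.42 against 10.01 and 10.09 (-0.42, adjusted p = 0.0076), and in tumors 13.47 and 13.41 against 13.05 and 13.06 (-0.38 ± 0.06, adjusted p = 0.00013). Every sgArid1a library lay below every control in these 3 settings. Pfkp fell by 0.09 in MC38 cells and was not called in MEFs (0.03). Pfkl, the liver isoform, fell in tumors (-0.34) and in MEFs, where it was 10.75 and 10.88 against 10.29 and 10.43 (-0.46 ± 0.07, adjusted p = 0.0018). Pfkm, the muscle isoform, was the one member called higher in 2 settings, by 0.20 in tumors and 0.10 in MC38 cells. Gpi1, which converts glucose 6-phosphate to fructose 6-phosphate, fell in tumors (-0.22) and MC38 cells (-0.13, lost without sgArid1a library 1 at an adjusted p of 0.057), and the hexokinase Hk1 in MC38 cells (-0.12).

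Of the 9 genes between aldolase and pyruvate, 4 fell and 1 rose in tumors, 4 fell in MC38 cells and 5 of 8 tested fell in MEFs, but only 1 fell in either the untreated or the DMSO cultures. Eno1, the main enolase, was 14.25 and 14 in sgScramble tumors and 13.56 and 13.72 in sgArid1a tumors (-0.48 ± 0.08, adjusted p = 0.00036, limma). It was 13.32 and 13.35 against 12.86 and 12.93 in MEFs (-0.44, adjusted p = 0.00069) and 13.43 and 13.50 against 13.28 and 13.30 in MC38 cells (-0.17, adjusted p = 2.8e-06). The groups were separate in these 3 settings, while the untreated values overlapped (13.33 and 13.68 against 13.45 and 13.45). Aldoa, the main aldolase, moved by -0.39 in tumors, -0.23 in MC38 cells and -0.39 in MEFs. Pkm, pyruvate kinase, moved by -0.33, -0.08 and -0.36 in the same order, and all 6 of these values were called. In the untreated cultures Aldoa and Pkm both differed by -0.33 with adjusted p of 0.067 and 0.079.

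Pgk1, the first enzyme of the pathway to make ATP, was 13.52 and 13.26 against 12.68 and 12.61 in untreated cultures (-0.74 ± 0.14, adjusted p = 0.0037, limma). It fell by 0.43 with DMSO, by 0.24 in MC38 cells and by 0.32 in MEFs; the DMSO call was lost without either sgArid1a library or without sgScramble library 2 (adjusted p 0.23, 0.18 and 0.066). Tpi1, triose phosphate isomerase, fell in tumors (-0.25) and MEFs (-0.31). Aldoc, the brain-type aldolase, rose in tumors (0.23), and Gapdh rose with DMSO (6.62 and 6.63 against 6.98 and 6.87) but stood at a low level for an abundant glycolytic enzyme. Per kilobase, the log2 value of Gapdh lay 6.2 to 8.42 below that of Tpi1 in all libraries of the log2 tables except the untreated and anti-IFNAR cultures, where the gap was 2.27 to 3. Pgam1 and the neuronal enolase Eno2 were not called in any of the 5 comparisons.

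The genes that decide the fate of pyruvate were the most regular group: of 3, all were lower in tumors, in untreated cultures and in MEFs, 2 were lower with DMSO, and 1 in MC38 cells. Slc16a3 (11:120948484-120959000, + strand, mm10) encodes MCT4, which exports lactate. Its log2 values were 12.45 and 12.35 against 11.89 and 11.98 in tumors (-0.46 ± 0.06, adjusted p = 6.1e-05, limma), 9.86 and 10.01 against 8.98 and 9.06 in MEFs (-0.92 ± 0.06, adjusted p = 7.5e-06), and 8.84 and 9.01 against 8.01 and 8.49 with DMSO (-0.67 ± 0.13, adjusted p = 0.0064). No library with Arid1a lost reached a control value in these 3 settings, though without sgArid1a library 1 the DMSO difference was -0.44 (adjusted p = 0.097). In untreated cultures it was 9.27 and 10.17 against 9.06 and 9 (-0.69 ± 0.21, adjusted p = 0.046); without sgScramble library 2, the higher control, the difference was -0.25 with an adjusted p of 0.18, and the call was also lost without either sgArid1a library (0.16 and 0.21). MC38 cells had 11.88 and 11.91 against 11.94 and 11.94, not called.

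Ldha (7:46847082-46855627, + strand) encodes the lactate dehydrogenase subunit that favours lactate formation. In tumors it was 16.41 and 16.35 against 16.06 and 16.06 (-0.32 ± 0.06, adjusted p = 0.00075, limma), and in MEFs 13.65 and 13.66 against 13.13 and 13.19 (-0.49 ± 0.06, adjusted p = 0.00028). Untreated cultures had 15.16 and 15.33 against 14.85 and 14.91 (-0.37, adjusted p = 0.036), a call lost without 3 of the 4 libraries and when only these 2 groups were fitted (0.15). These groups did not overlap. MC38 cells had 13.80 and 13.87 against 13.74 and 13.71 (-0.11, adjusted p = 0.0011, but 0.12 without sgArid1a library 2), and the DMSO values overlapped (14.14 and 14.42 against 14.01 and 14.18).

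Pdk1 (2:71873224-71903858, + strand), the kinase that inactivates pyruvate dehydrogenase, was 10.71 and 10.95 against 9.92 and 10.15 in untreated cultures (-0.80 ± 0.12, adjusted p = 0.00098, limma). With DMSO it was 10.43 and 10.57 against 9.82 and 10.06 (-0.56 ± 0.11, adjusted p = 0.01), and in tumors 12.53 and 12.56 against 12.19 and 12.13 (-0.38 ± 0.06, adjusted p = 0.00014). The sgArid1a libraries were the lower ones in all 3. In MEFs the values were 7.31 and 7.28 against 7.13 and 7.10 (-0.18, adjusted p = 0.024, but 0.076 without ethanol library 1 and 0.093 without tamoxifen library 2), and in MC38 cells they overlapped (9.74 and 9.76 against 9.78 and 9.70). Without sgArid1a library 1 the DMSO call was lost (adjusted p = 0.17).

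**Figure D2:**
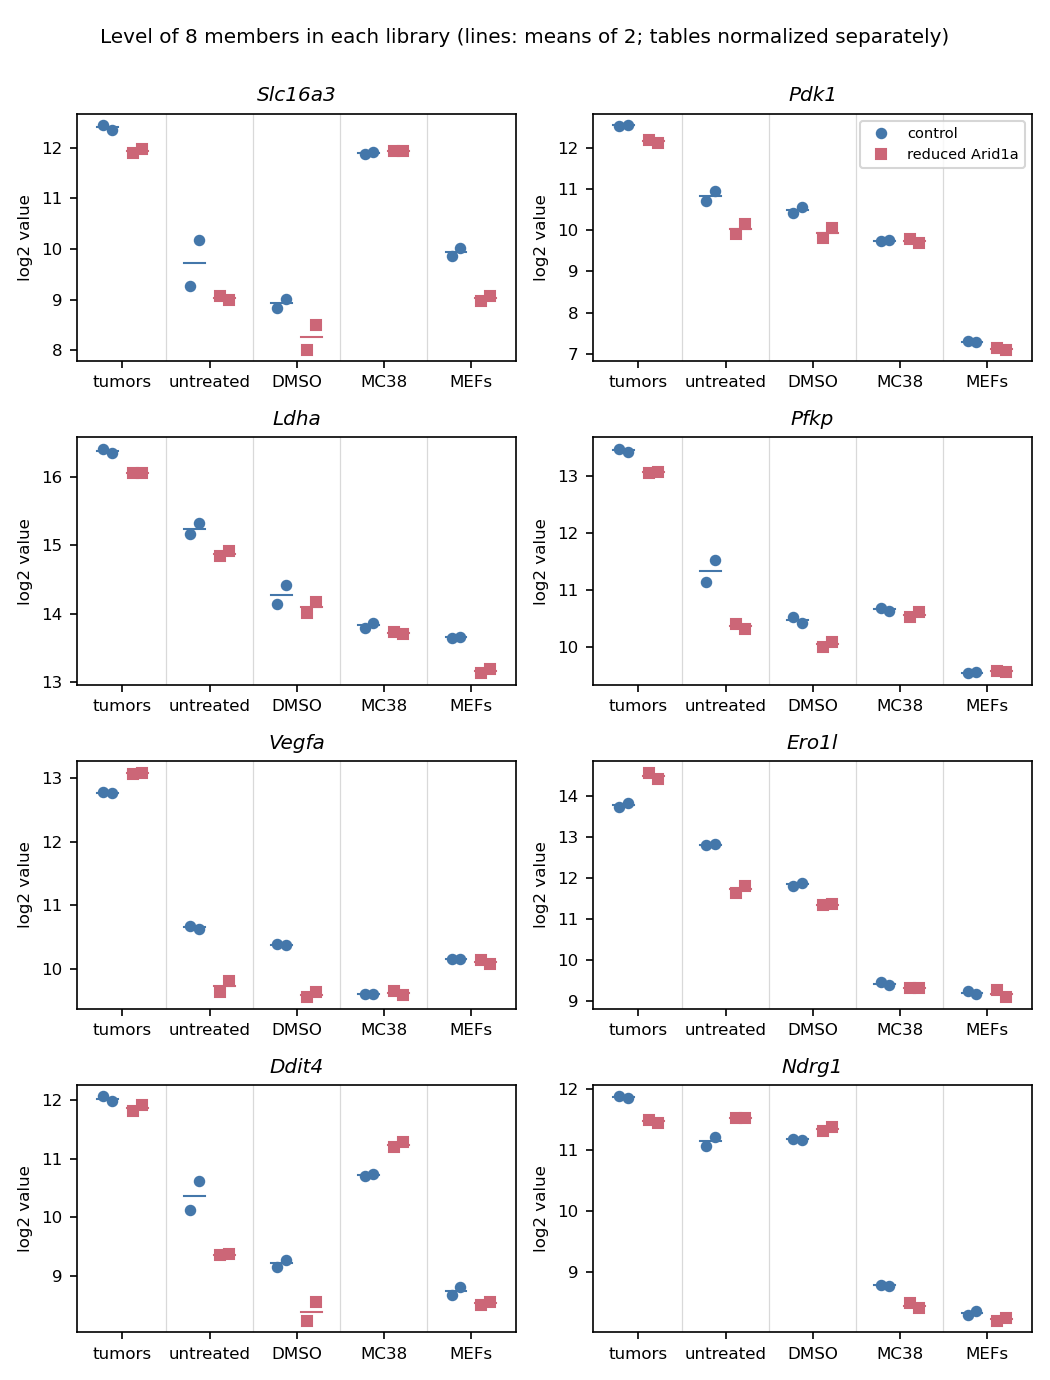
Log2 values of single libraries (points) for 8 members, with lines at the means and with control and Arid1a-loss groups side by side in each of the 5 settings; the vertical axis is the authors' normalized log2 scale, which was set in each table separately. Slc16a3 lies lower with Arid1a lost in tumors, DMSO cultures and MEFs but not in MC38 cells, and Vegfa and Ero1l lie higher in tumors and lower in untreated cultures.

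Genes of the feedback on oxygen sensing were lower in tumors and MEFs only in part. Egln3, a prolyl hydroxylase that HIF itself induces, was 8.79 and 8.75 against 8.34 and 8.30 in tumors (-0.45 ± 0.07, adjusted p = 0.00023, limma) and 7.81 and 7.84 against 7.56 and 7.51 in MEFs (-0.29 ± 0.05, adjusted p = 0.003). Elsewhere it was not called: 5.83 and 6.06 against 5.91 and 5.71 untreated, 5.81 and 5.94 against 5.72 and 5.69 with DMSO, and 7.14 and 7.10 against 7.13 and 7.17 in MC38 cells. Egln3 stood at a low level in the cultures, where the log2 values draw low genes together. Egln1, the main oxygen-sensing hydroxylase, was 13.04 and 12.97 against 12.56 and 12.56 in tumors (-0.44 ± 0.06, adjusted p = 4.1e-05) and was not called in the 4 culture settings. Ankrd37, a small ankyrin protein gene with a strong hypoxia response, fell in tumors (-0.29) and MEFs (-0.10), and the histone demethylase gene Kdm3a was not called in any of the 5.

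Among the 10 hypoxia outputs, 4 rose and 4 fell in tumors, whereas in the untreated cultures 6 fell and 1 rose. Vegfa (17:46016993-46032377, - strand), the main growth factor for vessels, was 12.78 and 12.76 against 13.07 and 13.09 in tumors (0.31 ± 0.06, adjusted p = 0.0005, limma). In untreated cultures it was 10.67 and 10.63 against 9.64 and 9.81 (-0.92 ± 0.10, adjusted p = 6.7e-05), and with DMSO 10.39 and 10.37 against 9.55 and 9.63 (-0.79 ± 0.08, adjusted p = 9e-05). Its groups were thus separate in opposite directions in tumors and in melanoma cultures. It was not called in MC38 cells (9.60 and 9.60 against 9.65 and 9.59) or MEFs (10.16 and 10.16 against 10.14 and 10.08). Ero1l, the oxidase that drives disulfide bonding in the endoplasmic reticulum, was 13.74 and 13.84 against 14.58 and 14.42 in tumors (0.71 ± 0.07, adjusted p = 3.2e-06). It was 12.80 and 12.84 against 11.64 and 11.81 in untreated cultures (-1.09 ± 0.10, adjusted p = 1.4e-05) and 11.82 and 11.88 against 11.34 and 11.37 with DMSO (-0.50 ± 0.08, adjusted p = 0.0034). Ero1l fell slightly in MC38 cells (-0.10) and was not called in MEFs; the DMSO call was lost without sgArid1a library 1 or 2 (adjusted p 0.077 and 0.059).

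Ddit4, a stress-induced inhibitor of mTORC1 signalling, was 10.13 and 10.61 against 9.35 and 9.38 in untreated cultures (-1 ± 0.14, adjusted p = 0.00053, limma) and 9.15 and 9.28 against 8.23 and 8.55 with DMSO (-0.83 ± 0.10, adjusted p = 0.00039). In MC38 cells it went the other way, from 10.70 and 10.73 to 11.19 and 11.29 (0.53 ± 0.03, adjusted p = 1.8e-14). Of the 12 members called in MC38 cells it had the largest change. MEFs had 8.68 and 8.82 against 8.51 and 8.56 (-0.21, adjusted p = 0.05), a call lost without ethanol library 2 (0.24) or tamoxifen library 1 (0.12), and tumors 12.06 and 11.98 against 11.81 and 11.92 (-0.16, adjusted p = 0.051, not called).

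Ndrg1 (15:66929318-66969641, - strand), a growth-arrest gene induced by hypoxia and differentiation, was 11.88 and 11.85 against 11.50 and 11.45 in tumors (-0.39 ± 0.06, adjusted p = 0.00013, limma) and 8.80 and 8.78 against 8.49 and 8.41 in MC38 cells (-0.34 ± 0.03, adjusted p = 8.5e-11). In untreated cultures it was the single member that rose, from 11.07 and 11.22 to 11.52 and 11.53 (0.38 ± 0.09, adjusted p = 0.013). That call was lost when only these groups were fitted (0.072) and without sgArid1a library 1 or 2 (0.098 and 0.11). With DMSO (11.19 and 11.17 against 11.32 and 11.38) and in MEFs (8.30 and 8.36 against 8.20 and 8.26) it was not called.

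Bnip3, a mitophagy receptor, was 11.40 and 11.17 against 10.25 and 10.49 in untreated cultures (-0.91 ± 0.12, adjusted p = 0.00034, limma) and 7.01 and 6.89 against 6.71 and 6.68 in MEFs (-0.26, adjusted p = 0.0053). Tumors (11.94 and 12.03 against 11.99 and 11.84), DMSO cultures (10.15 and 10.65 against 10.02 and 10.07) and MC38 cells (7.38 and 7.37 against 7.36 and 7.33) were not called. P4ha1, a collagen prolyl hydroxylase subunit, rose in tumors, from 12.10 and 11.97 to 12.50 and 12.50 (0.47 ± 0.06, adjusted p = 5.7e-05), with its relative P4ha2 (0.19). It was not called elsewhere: 10.10 and 10.38 against 10.08 and 9.90 untreated, 9.79 and 9.70 against 9.74 and 9.75 with DMSO, 9.82 and 9.81 against 9.82 and 9.79 in MC38 cells, and 10.78 and 10.58 against 10.50 and 10.39 in MEFs. Mxi1, a repressor that opposes Myc, fell in untreated cultures (-0.79) and tumors (-0.26), the carbonic anhydrase gene Car9 in untreated cultures (-0.54) and tumors (-0.21), and Adm, the vasodilator adrenomedullin, in tumors (-0.29).

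Few of the genes that regulate HIF itself were called in the cultures. Hif1a, the oxygen-labile subunit, rose in tumors from 13.37 and 13.55 to 14.30 and 14.20 (0.79) and was not called in the other 4 comparisons. Epas1, which encodes the HIF-2 alpha subunit, rose in tumors (0.51), untreated cultures (0.74) and DMSO cultures (0.58) and was at 0 in all MC38 libraries. Arnt2, a partner subunit, fell in tumors (-0.36), untreated cultures (-0.59), DMSO cultures (-0.52) and MEFs (-0.43). In MC38 cells Cited2 (0.17) and Egln2 (0.09) rose, where 8.33% of all genes were higher, and no other regulator was called. Of the 12 regulators tested, 4 rose and 2 fell in tumors, against 26% and 28.1% of all genes. In untreated cultures 1 rose and 1 fell, against 5.84% and 5.98% of all genes. With DMSO it was again 1 and 1, against 3.5% and 4.38%.

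Other genes of the same pathways were taken from 2 further lists. Among all genes tested, 26% were higher and 28.1% lower in tumors, and 5.84% and 5.98% in untreated cultures. These shares were 3.5% and 4.38% with DMSO, and 4.69% and 5.01% in MEFs. Of other glycolysis genes, 11 of 26 tested rose and 6 fell in tumors, led by the pyruvate dehydrogenase kinase Pdk2 (0.87) and the muscle phosphoglycerate mutase Pgam2 (0.83), while 2 of 22 rose and 2 fell in untreated cultures. In the DMSO cultures 0 of 23 were called, and in MEFs 1 of 23 rose and 2 fell. Other hypoxia targets were lower more often than higher in untreated cultures (9 lower and 1 higher of 26), with the collagen cross-linker Loxl2 at -1.12, and in tumors (15 lower and 11 higher of 36), with the haem oxygenase Hmox1 at -0.93 and the lysyl oxidase Lox at -0.82. In MEFs, 5 of 35 rose and 4 fell. With DMSO, the hypoxia targets Fam162a (-0.45), Loxl2 (-0.42) and Insig2 (-0.30) fell and no other was called. In MC38 cells both lists held genes called in each direction.

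A list of 20 targets of the integrated stress response, in which the factor ATF4 raises genes of amino acid supply and stress, moved in the direction of Vegfa and Ero1l in tumors and in melanoma cultures. It had 14 higher and 1 lower in tumors (median 0.65), against 26% and 28.1% of all genes. In untreated cultures 20 of 20 were lower (median -1.34), against 5.98% of all genes. With DMSO 20 of 20 were lower (median -0.81), against 4.38%. In MC38 cells 9 of 19 were lower, against 12.9% of all genes. In MEFs 3 of the list were higher and 2 lower, against 4.69% and 5.01%. Its part in the changes of Vegfa and Ero1l was not tested.

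Cell type markers also moved in the tumors. In sgScramble tumors 12 skeletal muscle markers summed to a log2 level of 11.04 and 10.99, against 13.77 and 13.77 with sgArid1a. Of these markers 12 of 12 were higher and none was at 0. Among all genes, 26% were higher and 28.1% lower in tumors. The macrophage sum was 14.11 and 14.07 against 14.94 and 14.98 (10 of 12 higher), the erythroid sum 12.56 and 12.43 against 11.02 and 11.14 (5 of 5 tested lower), and the melanocyte sum 19.75 and 19.72 against 19.30 and 19.31 (6 of 10 lower, 1 higher). In bulk tumors, fewer cells of a type and less RNA per cell cannot be told apart, and the part of these markers in the members' changes was not tested.

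IFNγ changed many of the genes in melanoma cultures, whichever guide the label names. In the sgScramble-labelled cultures 17 of 33 members were called, 3 higher and 14 lower, against 35%, 15.7% and 19.3% of all genes. In the sgArid1a-labelled cultures 23 were called, 4 higher and 19 lower, against 42.3%, 20.9% and 21.3% of all genes. The members' median was -0.08 and -0.14. The 4 groups were fitted together in 1 table.

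Ndrg1 had the largest response. It rose from 11.19 and 11.23 to 12.77 and 12.79 with the sgScramble label (1.57 ± 0.04, adjusted p = 1.9e-14, limma) and from 11.22 and 11.26 to 12.87 and 12.95 with the sgArid1a label (1.67 ± 0.04, adjusted p = 9e-15). Ldha rose as well, from 15.11 and 15.15 to 15.47 and 15.48 (0.35) and from 15.13 and 15.08 to 15.44 and 15.34 (0.28). All IFNγ libraries lay above all PBS libraries for both genes. Pfkp fell from 11.84 and 11.85 to 11.05 and 11.06 (-0.79 ± 0.04, adjusted p = 4.5e-11) and from 11.89 and 11.90 to 11.18 and 11.13 (-0.74 ± 0.04, adjusted p = 9.4e-11).

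Hk1 fell by 0.65 and 0.70 after IFNγ in the sgScramble- and sgArid1a-labelled cultures. The lactate exporter Slc16a3 fell by 0.41 and 0.45, Vegfa by 0.41 and 0.56, Ddit4 by 0.39 and 0.63, and Eno2 by 0.37 and 0.41. Ldha thus rose where Slc16a3 fell. Of the first-step genes 4 of 7 fell with the sgScramble label and 6 of 7 with the sgArid1a label, and of the 10 hypoxia outputs 7 and 6 fell. Eno1 was called higher only with the sgScramble label (0.20, against -0.01), but the difference between the responses did not pass (interaction -0.21 ± 0.06, adjusted p = 0.11, limma).

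For the interaction of guide and IFNγ, 0 of 33 members were called by limma, against 0.882% of all genes (0.696% higher, 0.186% lower). At an unadjusted p under 0.05 (limma) there were 7, 1 higher and 6 lower, against 11.2%, 6.43% and 4.73% of all genes. Without IFNγ sgScramble library 2, 1 was called. Between the labels, 1 of 33 members was called in the PBS cultures, Aldoc (9.50 and 9.40 against 9.65 and 9.63, adjusted p = 0.048), against 2.72% of all genes in either direction and 2.37% higher. None of 33 was lower there by limma, against 0.348% of all genes. At an unadjusted p under 0.05 (limma), 5 were higher and 0 lower, against 6.89% and 5.58% of all genes. The Aldoc call was lost without any 1 of the 4 libraries. With IFNγ, 1 member was higher (Kdm3a, 0.15) and 3 were lower (P4ha2, -0.18; Eno1, -0.16; Egln1, -0.15) with the sgArid1a label, against 6.73%, 4.03% and 2.7% of all genes. That count fell to 0 without sgScramble library 1 or sgArid1a library 2 and to 2 without sgArid1a library 1.

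**Figure D3:**
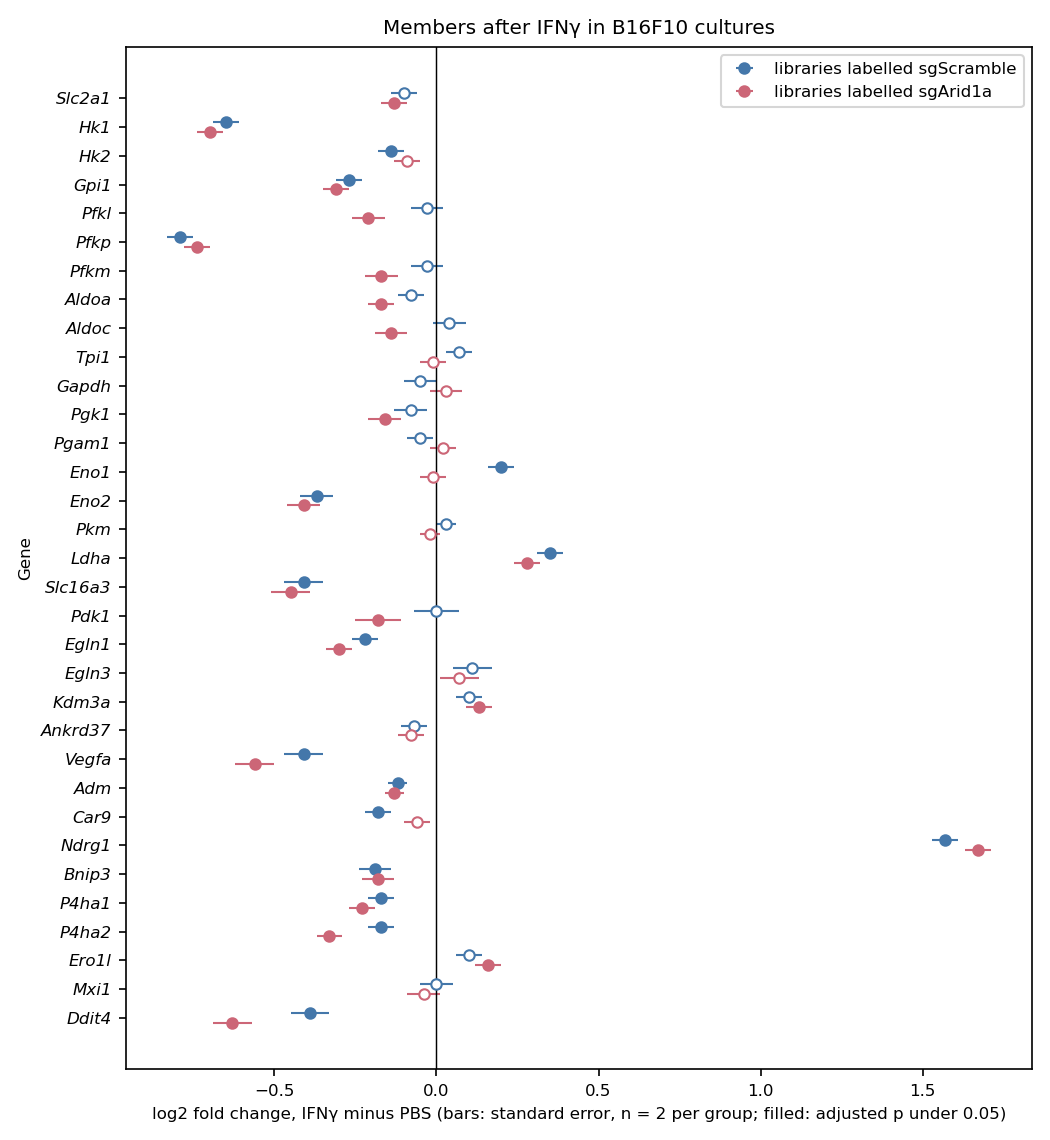
Log2 fold change after IFNγ for each of the 33 genes in cultures labelled sgScramble and sgArid1a, with bars of 1 standard error; filled points are called. Ndrg1 stands apart at 1.57 and 1.67, and Pfkp, at -0.79 and -0.74, and Hk1 are the lowest.

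The double-knockout cultures had lower levels of most of the genes than the untreated sgArid1a cultures, with which both were compared, so the 2 comparisons share these controls. The RNA of the targeted genes did not fall in every case, and RNA does not show whether the protein was lost. Mb21d1, which encodes cGAS, was 8.06 and 7.96 in sgArid1a cultures and 8.03 and 7.98 in the Cgas dKO libraries, and Tmem173, which encodes STING, was 9.47 and 9.51 against 9.04 and 8.87 in the Sting dKO libraries (-0.54). Arid1a was higher in both (0.47 and 0.36). In the libraries labelled Cgas dKO 26 of 33 members were lower and 0 higher, against 28.7% of all genes in either direction, 16.5% lower and 12.2% higher. In those labelled Sting dKO 27 were lower and 0 higher, against 31.8%, 17.9% and 13.9%. At an unadjusted p under 0.05 (limma), 28 were lower and 1 higher with the Cgas dKO label, against 21.8% and 18.7% of all genes, and 30 and 0 with the Sting dKO label, against 22.9% and 19.8%.

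Genes that share many words with other transcripts are given first. Gapdh was 11.71 and 12.28 in the sgArid1a cultures, 6.74 and 6.21 in the Cgas dKO and 6.93 and 6.59 in the Sting dKO libraries (-5.52 and -5.24). Pgk1 differed by -2.89 and -3.59, Pgam1 by -2.51 and -2.10, and Bnip3, at 10.25 and 10.49 against 7.22 and 7.24 and against 7.26 and 7.42, by -3.14 and -3.03. Per kilobase, Gapdh lay 6.2 to 6.85 log2 units below Tpi1 in the double-knockout libraries and 2.27 to 3 below it in the untreated and anti-IFNAR cultures. In the other log2 tables the gap was 7.06 to 8.42.

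Genes that share few words with other transcripts were lower too. Among the 20 members with at most 10% of shared 31-base words, a split chosen after the values were seen, 14 were lower in each comparison, with medians of -0.70 (Cgas dKO) and -0.66 (Sting dKO). Among the 13 members above it, 12 and 13 were lower, with medians of -1.20 and -1.32. Slc16a3, with none of its words shared, was 9.06 and 9 in sgArid1a cultures, 6.94 and 7.04 in the Cgas dKO (-2.04 ± 0.21, adjusted p = 7e-06, limma) and 6.71 and 6.54 in the Sting dKO libraries (-2.40 ± 0.21, adjusted p = 1.3e-06). Pdk1 was 9.92 and 10.15, then 8.15 and 7.96 (-1.98 ± 0.12, adjusted p = 3.5e-08) and 8.05 and 8.02 (-2 ± 0.12, adjusted p = 3.1e-08). Both genes were separate from the sgArid1a cultures by more than 1.5 units in every library.

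**Figure D4:**
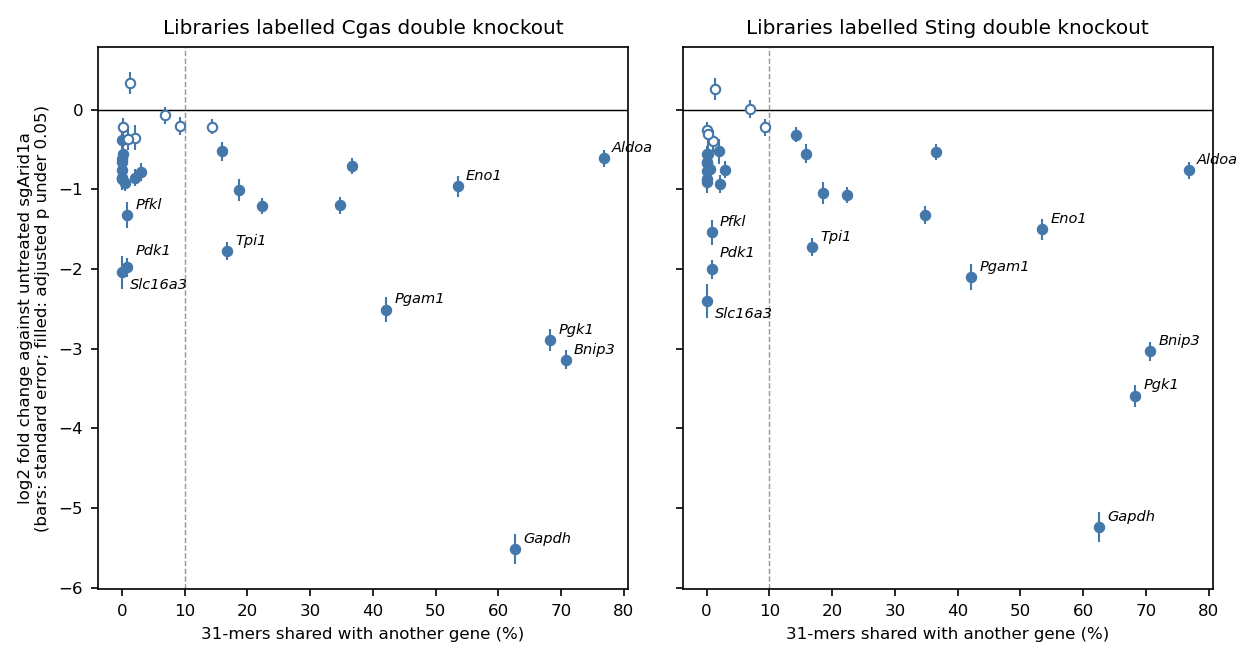
Log2 fold change of each member in the Cgas dKO and Sting dKO libraries against untreated sgArid1a cultures (vertical axis), by the percent of its 31-base words shared with other genes (horizontal axis); bars are standard errors, filled points are called, and the dashed line is the split at 10%. Gapdh, Pgk1, Bnip3 and Pgam1 are the lowest points at high sharing, and Slc16a3 and Pdk1 lie near -2 with almost none.

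Pfkl (-1.32 and -1.54), Tpi1 (-1.77 and -1.72), Pkm (-1.20 and -1.32) and Ldha (-1.21 and -1.07) were lower in the Cgas dKO and Sting dKO libraries, as were Vegfa (-0.92 and -0.74), Ero1l (-0.85 and -0.55) and Slc2a1 (-0.85 and -0.93). With the Cgas dKO label 7 members were not called: Hk1, Pfkm, Eno2, Adm, Car9, Ndrg1 and P4ha1. By role, 5 of 7 first-step genes, 8 of 9 from aldolase to pyruvate, 3 of 3 of pyruvate fate, 4 of 4 of oxygen feedback and 6 of 10 outputs were lower in the Cgas dKO libraries. Of other hypoxia targets, 14 and 15 of 26 were lower and 1 higher in each. The shares of all genes were 16.5% and 17.9% lower, and 12.2% and 13.9% higher. Among these targets the mitochondrial gene Higd1a was at -2.48 and -2.20. The mitochondrial pyruvate carrier subunit gene Mpc1 was at -4.03 and -4.04. Mpc1 was 10.36 and 10.45 in untreated sgArid1a cultures, but 6.22 and 6.42 in the separately normalized sgArid1a DMSO cultures. Higd1a was 9.98 and 10.04 untreated and 8.46 and 8.55 with DMSO. Shared words were not counted for either gene, and a difference in counting between libraries was not tested. Integrated stress response targets did not follow: 9 rose and 3 fell with the Cgas dKO label, against 12.2% and 16.5% of all genes. With the Sting dKO label 11 of these targets rose and 4 fell, against 13.9% and 17.9%. The labels do not say whether these libraries were made with the untreated ones, so a batch and the knockouts cannot be told apart.

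Blocking the type I interferon receptor in sgArid1a cells left no member past the threshold. With anti-IFNAR, compared with the same untreated sgArid1a libraries as above, 0 of 33 members were called by limma, 3 had an unadjusted p under 0.05, against 1.28% of all genes, and the authors' deposited table also calls 0. The share of all genes called was 0.0171%, with 0% higher and 0.0171% lower, so few genes of any kind passed. The members' median was -0.12. Bnip3 was 10.62 and 10.82 against 10.53 and 10.11 (-0.40 ± 0.13), and Pgk1 was 12.98 and 12.92 against 12.77 and 12.42 (-0.35 ± 0.11).

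Ruxolitinib was set against the sgArid1a DMSO libraries, which the DMSO comparison above also uses. No member of 32 was called by limma, against 0.221% of all genes (0.0255% higher, 0.195% lower), but 20 were lower and none higher at an unadjusted p under 0.05, against 6.84% and 3.08% of all genes, and the members' median was -0.22 against 0 for all genes. When only the 2 groups were fitted, 4 were called. The authors' deposited table calls 14 members lower and 0 higher, against 1.85% of all its genes lower. Among the 14, by the authors' edgeR results, are Slc16a3 (-1.02, adjusted p = 0.00065), Aldoc (-0.69, adjusted p = 0.0002) and Pfkl (-0.62, adjusted p = 4.4e-05). In the values used here, Slc16a3 was 8.01 and 8.49 with DMSO and 7.82 and 7.77 with ruxolitinib (-0.45 ± 0.13, adjusted p = 0.44). Aldoc was 9.45 and 9.77 against 9.19 and 9.2 (-0.41 ± 0.10, adjusted p = 0.32), and Pfkl was 10.72 and 11 against 10.44 and 10.47 (-0.40 ± 0.10, adjusted p = 0.28). The groups were separate for all 3 genes.

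BD98 changed the aldolase and enolase isoforms in opposite directions in sgScramble cells. The count of members called was near the share of all genes. With BD98 18 of 33 members were called against DMSO (edgeR quasi-likelihood test), 10 higher and 8 lower, against 49.9%, 24.5% and 25.4% of all genes, and DESeq2 called 15. The members' median was 0.02, and their share of all counts was 1.55% to 1.82%. The levels that follow are in CPM, counts scaled to a common library size, and per kilobase of transcript where genes are compared.

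Of the enolases, Eno1 was 317 and 364 CPM per kilobase with DMSO and 246 and 215 with BD98 (log2 fold change -0.56 ± 0.08, adjusted p = 1.5e-06, edgeR), and Eno2 was 4.70 and 5.34 against 12 and 13.7 (1.37 ± 0.12, adjusted p = 3.9e-10). Of the aldolases, Aldoa was 1450 and 1680 against 1410 and 1310 (-0.20, adjusted p = 0.028), and Aldoc was 39.2 and 43.3 against 70.6 and 69.3 (0.76 ± 0.08, adjusted p = 1.8e-08). In both families the scarcer isoform rose and the abundant one fell, and the abundant one stayed far above it in every library. The abundant isoforms, Aldoa and Eno1, share many words with other transcripts, so their values are uncertain. Among phosphofructokinases, Pfkm rose from 35.6 and 37 to 63.1 and 58.5 (0.75 ± 0.07, adjusted p = 2e-09) and Pfkl by 0.27, while Pfkp was not called (0.11). From the list of other glycolysis genes 12 of 25 rose and 1 fell, against 24.5% and 25.4% of all genes. Among those that rose were the muscle enolase Eno3, from 69.1 and 69.3 to 224 and 189 CPM (1.58), Pdk4 (2.62) and Pfkfb4 (1.1).

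Slc2a1 rose from 181 and 201 to 274 and 245 CPM (0.44 ± 0.07, adjusted p = 1.9e-05, edgeR) and Slc16a3 from 178 and 198 to 270 and 223 CPM (0.39 ± 0.08, adjusted p = 0.00021). Vegfa rose from 265 and 277 to 431 and 418 CPM (0.65 ± 0.07, adjusted p = 4.2e-08). For these 3 genes every BD98 library was above every DMSO library. Slc16a3 and Slc2a1 were thus higher with BD98. With sgArid1a, Slc16a3 was lower and Slc2a1 was not called, both in the 72 h DMSO cultures (-0.67 and 0.01) and in tumors (-0.46 and 0.03). BD98 was given to cultures and not to tumors. These tables were normalized separately and the difference was not tested.

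Ndrg1 fell from 248 and 254 to 130 and 141 CPM (-0.89 ± 0.08, adjusted p = 7.3e-10, edgeR), Kdm3a by 0.53, Egln3 by 0.48, Ddit4 by 0.39, Pkm by 0.36 and Mxi1 by 0.27. Hif1a rose from 325 and 345 to 573 and 641 CPM (0.86), Epas1 by 0.52 and Vhl by 0.55, and Arnt2 fell by 0.38. Myc, a driver of glycolytic genes, fell from 94.7 and 87.1 to 41.3 and 42.2 CPM (-1.13). Arid1a fell as well, from 275 and 294 to 199 and 211 CPM. All 10 melanocyte markers were lower with BD98, and of the integrated stress response targets 17 of 20 fell and 0 rose. Among all genes, 25.4% were lower and 24.5% higher. The part of either list in the members' changes was not tested.

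**Figure D5:**
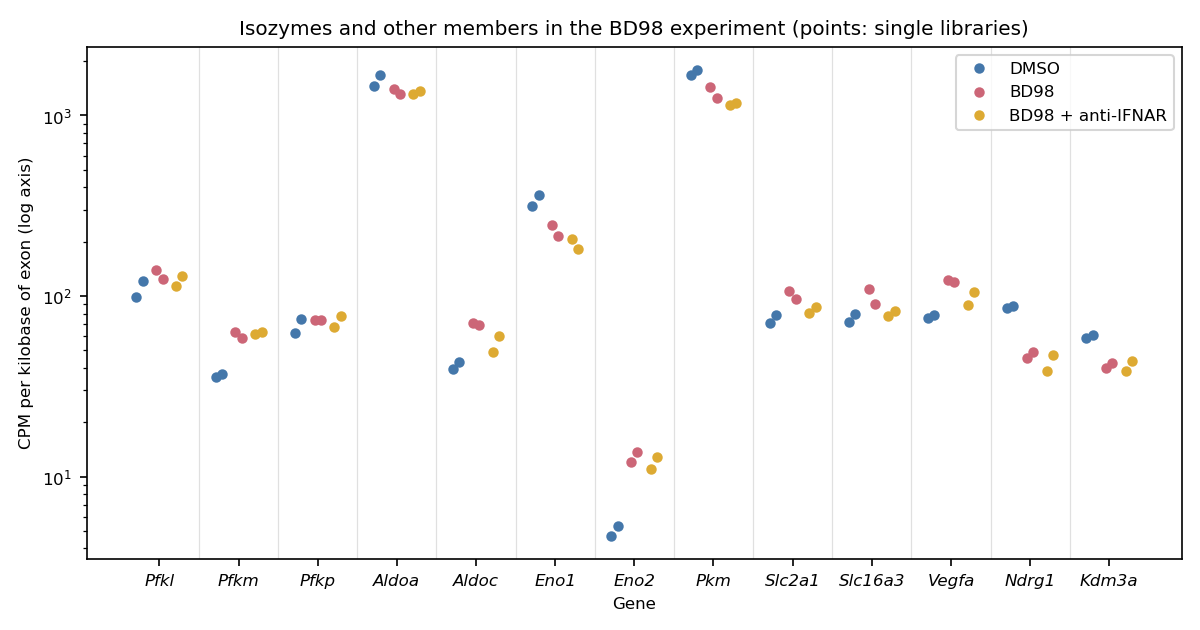
CPM per kilobase of transcript (log axis) of 13 members in the DMSO, BD98 and BD98 with anti-IFNAR libraries (points, 2 per group). Eno2, Aldoc, Pfkm and Vegfa lie higher with BD98 and Eno1 and Ndrg1 lower, and most points with anti-IFNAR lie near those with BD98 alone.

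Adding anti-IFNAR to BD98 lowered 3 of 33 members and raised 0, against 1.49% of all genes in either direction, 1.39% lower and 0.109% higher (edgeR); 12 were lower and 0 higher at an unadjusted p under 0.05, against 8.04% and 4.2% of all genes. The comparison shares the BD98 libraries with the one above. Bnip3 fell from 152 and 179 to 108 and 130 CPM (-0.47 ± 0.09, adjusted p = 0.0036), Aldoc from 188 and 185 to 131 and 159 (-0.36 ± 0.08, adjusted p = 0.017) and Vegfa from 431 and 418 to 316 and 369 (-0.31 ± 0.07, adjusted p = 0.025). None of the 3 overlapped, and the combined treatment still held Vegfa above its DMSO values of 265 and 277. The count ran from 0 without anti-IFNAR library 1 to 10 without BD98 library 2, and was 5 without BD98 library 1.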

How the data were processed

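PolyA RNA was sequenced from 42 libraries in 21 groups of 2; libraries were made with a stranded mRNA kit, per the labels' protocols. The submitters' processing notes name STAR 2.5.3a, HOMER, DESeq2, edgeR and the mm10 build. Per the file headers, HOMER counted reads in exons with no strand option stated, so reads of overlapping antisense genes may be included and near-identical copies can split or lose reads. The BD98 table holds raw counts deposited by the authors. The other 7 gene tables hold the authors' normalized log2 values, with low values drawn together, so low genes show smaller differences; the transform is not given in the sources used here. Fold changes and adjusted p-values in the deposited tables are the authors' own. The values of 10 columns of other samples were not used.

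From these files, log2 values were tested with limma 3.58.1 (trend) for genes with a mean of at least 4, and counts with the edgeR 4.0.16 quasi-likelihood test (TMM, filterByExpr), in R 4.3.3. Each fit held every group of its table, and p-values were adjusted by the Benjamini-Hochberg method over all genes tested. The analysis design had foreseen counts in some tables that hold log2 values, and limma was used there. Alternatives were the replicate number as a block, leaving out each library, only the 2 groups compared, no filter on low values, libraries centred on the median, another table's normalization of the same libraries, and DESeq2 1.42.0. The scripts were tested on simulated data. Depth was 8.7 M to 38.8 M reads per library.

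The members and lists were chosen with earlier results of these data known, so they are not independent evidence. Every member was accounted for; per-library values were given for a panel of 11 genes in the Arid1a comparisons and, in each comparison, for up to 6 called members without overlap and with the largest changes, with up to 3 genes of each other list. A gene that this rule picked is not reported here. Promoters were shown for members lower in at least 3 Arid1a comparisons.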

Additional observations from a re-analysis of the deposited data

Results flagged for a closer look

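For 4 members the effect of Arid1a loss was called in opposite directions in different settings. The tables were normalized separately, so the differences between settings were not tested. Vegfa had a log2 fold change of 0.31 in tumors, -0.92 in untreated cultures and -0.79 in DMSO cultures. Ero1l changed by 0.71 in tumors, -1.09 in untreated cultures, -0.50 with DMSO and -0.10 in MC38 cells. Ndrg1 rose by 0.38 in untreated cultures and changed by -0.39 in tumors and -0.34 in MC38 cells. Ddit4 rose by 0.53 in MC38 cells and changed by -1 in untreated cultures, -0.83 with DMSO and -0.21 in MEFs.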

How the results depend on the processing

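No count or named value changed direction under any alternative, and of the alternatives for the 108 named values, 751 kept their side of the threshold, 63 lost the call and 13 gained it. Apart from the values that follow, the number of members called was within 1.5 times of that reported in every alternative run. It was 7 for MC38 cells without the filter on low values, and in the PBS cultures 0 without that filter and 0 with libraries centred on the median. Between labels with IFNγ it was 0 with only the 2 groups fitted and 1 without the filter. It was 4 for ruxolitinib with only the 2 groups fitted, and 8 for anti-IFNAR after BD98 without a filter on low counts. With each library left out in turn, the count ranged from 18 to 23 in tumors, 8 to 26 in untreated cultures, 2 to 16 with DMSO, 7 to 11 in MC38 cells, 11 to 13 in MEFs, 0 to 0 with PBS, 0 to 6 between labels with IFNγ, 15 to 20 and 17 to 19 for IFNγ with the sgScramble and sgArid1a labels, and 0 to 1 for the interaction. It ranged from 24 to 25 for Cgas dKO, 23 to 24 for Sting dKO, 0 to 0 for anti-IFNAR, 0 to 0 for ruxolitinib, 15 to 18 for BD98 and 0 to 10 for anti-IFNAR after BD98. A lone library left in a group is assumed to vary like the others.

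The labels give replicate numbers but no shared source. With the number as a block, 21 members were called in MEFs, where 13 were called without it, and 6 for anti-IFNAR after BD98, where 3 were; no other count moved by over 1.5 times. Same-numbered samples deviated together with a correlation of 0.68 in MEFs, -0.49 in tumors, -0.37 in untreated cultures, 0.08 in MC38 cells and -0.07 with DMSO. For the Sting dKO comparison, no paired analysis was possible because its columns carry no replicate number. The cause of these shifts was not tested. Each group has 2 libraries, and low genes are further limited by the drawn-together log2 scale.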
